A study of Homo sapiens with 12 samples.

Results

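Transcripts of 10 regulators and effectors of the integrated stress response were followed in A375 cells treated with a pair of inhibitors, alone and together. The genes were taken by name from the deposited table: ATF4, DDIT3, ATF3, NUPR1, TRIB3, CHAC1, SESN2, DDIT4, GDF15 and ADM2, 10 of its 26475 entries. All 10 had enough counts to be tested, among 15353 genes in all. In the integrated stress response, kinases that sense amino acid shortage, misfolded proteins, double-stranded RNA or heme deficit phosphorylate the translation factor eIF2. General translation is then lowered while that of ATF4, a bZIP transcription factor, is raised. ATF4 and its partners switch on genes of amino acid supply, further transcription factors, feedback inhibitors and secreted stress signals, and melanoma cells are known to use the pathway when nutrients are short. Because ATF4 is controlled largely at translation, its mRNA level is only a partial measure of the protein.

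A375 is an established human melanoma line, so all values come from a single line. The 4 groups were cells given DMSO (the vehicle), XL413 at 1 µM, OF1 at 1 µM, or both agents at 1 µM each (the combination), for 24 h and with 3 libraries each. XL413 inhibits CDC7, a kinase needed to start DNA replication. OF1 binds the bromodomains of BRPF1, BRPF2 and BRPF3, scaffolds of histone acetyltransferase complexes. The submitters call the libraries biological replicates without saying whether cultures were separate, and the spread that p-values rest on is that between libraries, which may be technical. In bulk RNA, fewer cells of a type and less RNA per cell cannot be told apart.

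Each library held 30499559 to 36062138 counts. Of 12 melanoma or melanocyte markers, 7 averaged at least 1 CPM (counts scaled to a common library size), among them SOX10 and CSPG4. The pigment genes TYR, MLANA, DCT and TYRP1 were at or near 0. All 20 genes listed as skeletal muscle markers also averaged at least 1 CPM over the 12 libraries, though some, such as CKM at 0.056 CPM, fell below it in single libraries. Their summed level was 125 to 199 CPM in the combination, 190 to 345 CPM in DMSO, 245 to 416 CPM in XL413 and 218 to 407 CPM in OF1. CKB alone gave 74.0 to 101 CPM of this sum per library, while MYH3 ranged from 4.54 to 49.0 CPM and ACTC1 from 7.88 to 87.5 CPM. The summed level of 10 fibroblast markers was 64.2 to 166 CPM in the combination and 221 to 292 CPM over the other 9 libraries. Combination replicates 2 and 3 stood apart on the first principal component of all genes, at −33.4 and −31.5, against −7.0 for replicate 1 and −1.9 to 15.1 for the others. Results on the combination are therefore also given with its replicate 1 alone, and with a muscle score (mean log2 CPM over 32 genes of muscle fibres) as a covariate. With replicate 1 alone the combination is 1 library, whose spread is taken from the other groups on the assumption that it varies as they do, so calls in that setting have no replicate check of their own.

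Levels below are CPM scaled by the TMM (trimmed mean of M values) library size. They are not divided by transcript length and are not compared between genes. Differences are log2 fold changes ± SE from edgeR's quasi-likelihood test over all 15353 genes, and a gene is said to rise or fall where its Benjamini-Hochberg adjusted p was under 0.05.

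OF1 alone raised 3 of the 10 over DMSO, where 1.15% of all tested genes passed in either direction. The combination raised 7 over DMSO, where 10.7% of all genes passed, and adding OF1 to XL413-treated cells raised 8, where 3.41% passed. XL413 alone raised or lowered none of the 10, where 2.8% of all genes passed. The largest differences were in CHAC1 and ADM2, and ATF3 and DDIT4 passed in no comparison.

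**Figure D1:**
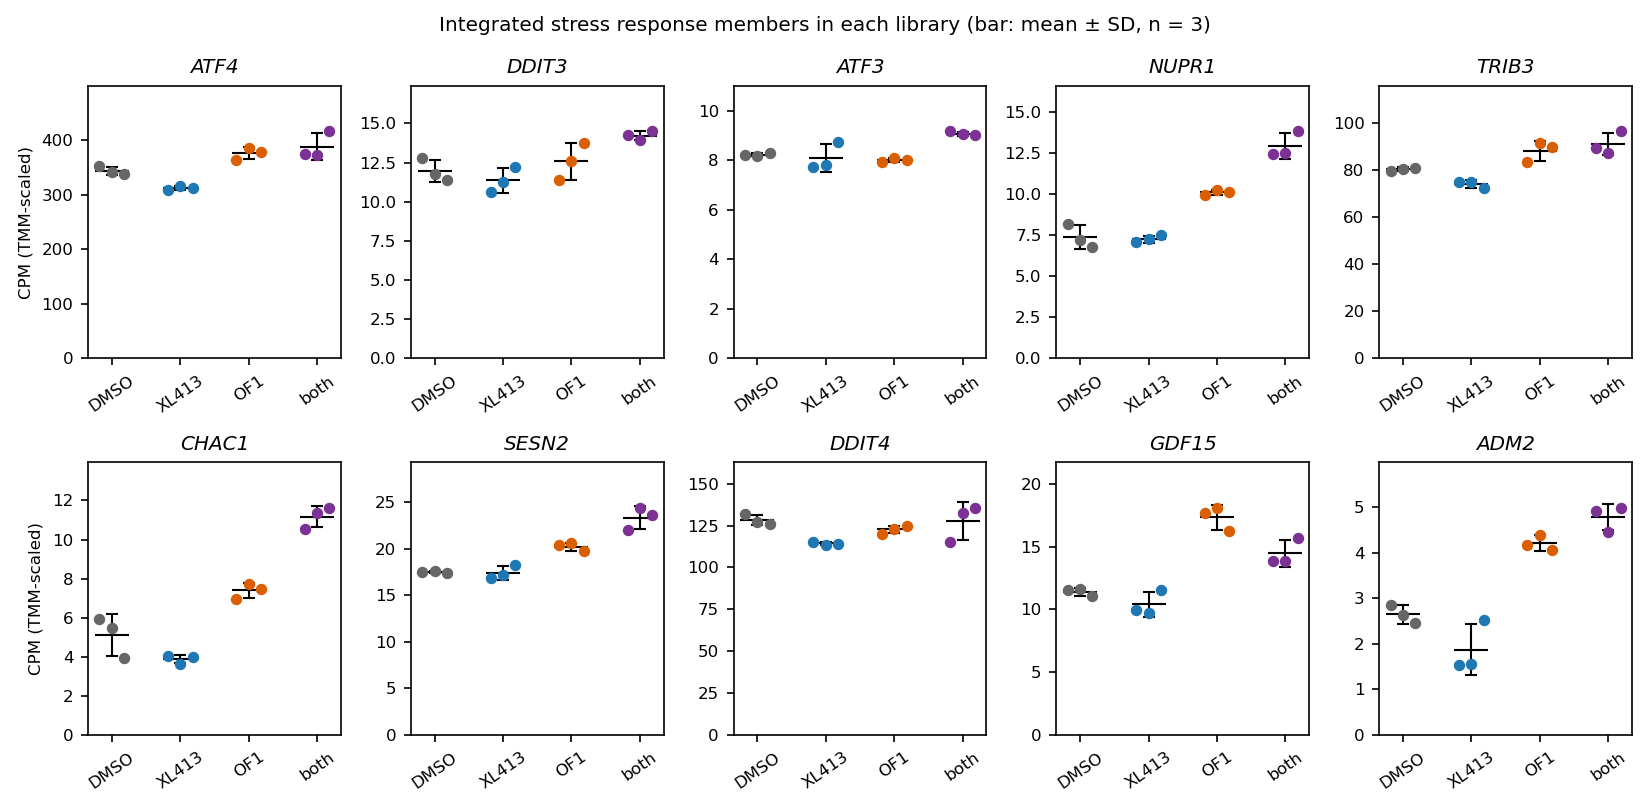
CPM (linear axis from 0, its own scale in each panel) of the 10 genes in each of the 12 libraries, by treatment ("both" is the combination), with bars for the mean ± SD of 3 libraries. CHAC1 reads 3.64 to 4.03 CPM with XL413 and 10.6 to 11.6 CPM with both agents, and GDF15 is highest with OF1 alone.

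CHAC1 encodes an enzyme that breaks down glutathione and is a target of the ATF4, ATF3 and CHOP chain. It lies on chr15:40953471-40956512 (plus strand, GRCh38.p14, as all positions here). Its level was 5.94, 5.49 and 3.92 CPM in DMSO replicates 1, 2 and 3, and 4.03, 3.64 and 3.98 CPM with XL413. With OF1 it was 6.97, 7.75 and 7.48 CPM, and with the combination 10.6, 11.4 and 11.6 CPM. Libraries of DMSO and XL413 overlapped, while every OF1 library lay above both and every combination library above those. Adding OF1 to XL413 raised CHAC1 by 1.52 ± 0.12, a 2.87-fold difference (edgeR, adjusted p = 4.85e-06). OF1 alone raised it by 0.53 ± 0.12 over DMSO (edgeR, adjusted p = 0.0495), and the combination raised it by 1.13 ± 0.12 over DMSO (edgeR, adjusted p = 4.97e-05). XL413 alone gave −0.40 ± 0.13, which did not pass (edgeR, adjusted p = 0.117). The rise with OF1 alone was lost when any of the OF1 libraries or DMSO replicate 2 or 3 was left out, and in a fit to the 6 libraries compared. With combination replicate 1 alone the rise over XL413 was 1.44 ± 0.17, and with the muscle covariate it was 1.33 ± 0.18.

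NUPR1, a small chromatin-associated stress protein, lies on chr16:28532708-28538974 (minus strand). It read 8.18, 7.22 and 6.81 CPM with DMSO and 7.08, 7.25 and 7.50 CPM with XL413. It read 9.99, 10.3 and 10.1 CPM with OF1, and 12.5, 12.5 and 13.8 CPM with the combination. These form the same order as for CHAC1, with no overlap of OF1 or the combination with any other group. NUPR1 rose by 0.45 ± 0.08 with OF1 alone (edgeR, adjusted p = 0.012) and by 0.83 ± 0.08 when OF1 was added to XL413 (edgeR, adjusted p = 1.81e-05). The first rise was lost without DMSO replicate 2 or 3 or OF1 replicate 2. The second was 0.78 ± 0.11 with combination replicate 1 alone and 0.73 ± 0.12 with the muscle covariate.

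ATF4 itself lies on chr22:39520559-39522686 (plus strand). Its level was 352, 342 and 338 CPM in DMSO, 308, 317 and 312 CPM in XL413, 364, 386 and 378 CPM in OF1, and 375, 373 and 416 CPM in the combination. The 3 XL413 libraries were the lowest of the 12, and OF1 and combination libraries overlapped above DMSO. ATF4 rose by 0.31 ± 0.04 when OF1 was added to XL413 (edgeR, adjusted p = 0.000545), a 1.24-fold difference. This rise of ATF4 over XL413 was 0.26 ± 0.04 with combination replicate 1 alone, and with the muscle covariate 0.31 ± 0.07, which did not pass (edgeR, adjusted p = 0.111). Against DMSO, OF1 alone gave 0.13 ± 0.04 (edgeR, adjusted p = 0.147) and XL413 alone −0.14 ± 0.04 (edgeR, adjusted p = 0.0797), neither of which passed. The combination raised it by 0.18 ± 0.04 over DMSO (edgeR, adjusted p = 0.0139), but this ATF4 call was lost with the covariate (0.17 ± 0.06, edgeR, adjusted p = 0.139) and with combination replicate 1 alone (0.13 ± 0.04). It was also lost without DMSO replicate 2 or 3 and in a fit to the 6 libraries compared.

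DDIT3 encodes CHOP, a bZIP factor that acts downstream of ATF4 and is tied to cell death under lasting stress. It lies on chr12:57516588-57520517 (minus strand). The 12 libraries read 12.8, 11.8 and 11.4 CPM with DMSO, 10.7, 11.2 and 12.2 CPM with XL413, 11.4, 12.6 and 13.8 CPM with OF1, and 14.3, 13.9 and 14.5 CPM with the combination. The combination lay above all other libraries, and the other 3 groups overlapped. Over DMSO the combination gave DDIT3 0.25 ± 0.08, just short of the threshold (edgeR, adjusted p = 0.0502). Of 16 alternatives, 12 did not call this DDIT3 difference and 4 called it higher. The 4 were limma-voom, upper-quartile factors, a filter of at least 1 CPM in 3 libraries and the fit without DMSO replicate 1. DDIT3 rose by 0.32 ± 0.08 when OF1 was added to XL413 (edgeR, adjusted p = 0.0333). That call was lost with combination replicate 1 alone, when XL413 replicate 1 or 2 or combination replicate 2 or 3 was left out, and with the muscle covariate (edgeR, adjusted p = 0.829). In GENCODE release 29, 27.2% of the DDIT3 exon bases also lie in exons of MARS, the methionyl-tRNA synthetase gene on the opposite strand. The libraries kept strand information, but whether counting used it is not given in the sources used here. MARS itself rose by 0.32 ± 0.03 in the same comparison (edgeR, adjusted p = 1.48e-05). Its part in the DDIT3 counts was not tested.

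ATF3, a bZIP factor induced by ATF4 and by several other stress signals, lies on chr1:212565407-212620777 (plus strand). It read 8.21, 8.19 and 8.28 CPM with DMSO, 7.72, 7.79 and 8.74 CPM with XL413, 7.94, 8.10 and 8.02 CPM with OF1, and 9.16, 9.05 and 9.01 CPM with the combination. The 3 combination libraries were the highest of the 12, by a narrow margin over XL413 replicate 3. No comparison passed for ATF3. The differences of the combination were 0.14 ± 0.07 from DMSO (edgeR, adjusted p = 0.215), 0.17 ± 0.07 from XL413 (edgeR, adjusted p = 0.233) and 0.18 ± 0.07 from OF1 (edgeR, adjusted p = 0.143).

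TRIB3 and SESN2 are feedback members. TRIB3, a pseudokinase that binds ATF4 and CHOP and restrains AKT, lies on chr20:380760-397559 (plus strand). It read 79.4, 80.7 and 80.9 CPM in DMSO, 75.0, 74.9 and 72.2 CPM in XL413, 83.4, 91.5 and 89.8 CPM in OF1, and 89.6, 87.2 and 96.4 CPM in the combination. As for ATF4, all XL413 libraries were below DMSO, and OF1 and combination libraries were above DMSO and overlapped each other. TRIB3 rose by 0.30 ± 0.04 when OF1 was added to XL413 (edgeR, adjusted p = 0.00177). It was 0.38 ± 0.07 with the muscle covariate and 0.28 ± 0.05 with combination replicate 1 alone, and both passed. With OF1 alone TRIB3 gave 0.14 ± 0.04 over DMSO, which did not pass (edgeR, adjusted p = 0.163). The combination raised TRIB3 by 0.18 ± 0.04 over DMSO (edgeR, adjusted p = 0.0177). That call was lost with combination replicate 1 alone and when any DMSO library or combination replicate 3 was left out.

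SESN2 encodes sestrin 2, a leucine-binding protein that restrains mTORC1, and lies on chr1:28259518-28282491 (plus strand). Its libraries read 17.5, 17.6 and 17.4 CPM with DMSO, 16.8, 17.2 and 18.3 CPM with XL413, 20.4, 20.6 and 19.7 CPM with OF1, and 22.0, 24.4 and 23.6 CPM with the combination. DMSO and XL413 overlapped, OF1 was above both, and the combination was above OF1. SESN2 rose by 0.42 ± 0.05 when OF1 was added to XL413 (edgeR, adjusted p = 0.000356) and by 0.41 ± 0.05 in the combination over DMSO (edgeR, adjusted p = 0.000229). OF1 alone gave SESN2 0.21 ± 0.05, which did not pass (edgeR, adjusted p = 0.0795). With the muscle covariate the rise over XL413 was 0.31 ± 0.08 and no longer passed (edgeR, adjusted p = 0.209).

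DDIT4 encodes REDD1, another brake on mTORC1 that also responds to hypoxia and glucocorticoids, and lies on chr10:72273924-72276036 (plus strand). It read 132, 127 and 126 CPM with DMSO, 116, 113 and 114 CPM with XL413, 120.2, 123 and 125 CPM with OF1, and 115, 133 and 136 CPM with the combination. XL413 libraries were below all DMSO and OF1 libraries, and the combination split, with replicate 1 among the XL413 values and replicates 2 and 3 above all OF1 values. XL413 alone gave −0.17 ± 0.05 (edgeR, adjusted p = 0.0856) and OF1 alone −0.06 ± 0.05 (edgeR, adjusted p = 0.598), and the combination differed from DMSO by −0.01 ± 0.05 (edgeR, adjusted p = 0.956). The value of DDIT4 in the combination rests on which libraries are used, since replicate 1 alone differed from DMSO by −0.16 ± 0.04, while without replicate 1 DDIT4 rose by 0.23 over XL413 (edgeR, adjusted p = 0.000856). In GENCODE release 29, 41.2% of the DDIT4 exon bases lie in exons of DDIT4-AS1, on the opposite strand.

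The secreted members differed in which group was highest. GDF15, a hormone-like member of the TGF-beta family that signals stress to the hindbrain, lies on chr19:18386158-18389176 (plus strand). It read 11.6, 11.6 and 11.1 CPM with DMSO, 9.93, 9.74 and 11.6 CPM with XL413, 17.7, 18.1 and 16.2 CPM with OF1, and 13.9, 13.9 and 15.7 CPM with the combination. OF1 libraries were above all others, and the combination lay between OF1 and the overlapping DMSO and XL413 groups. GDF15 rose by 0.60 ± 0.08 with OF1 alone, 1.52-fold (edgeR, adjusted p = 0.00111), and this call held when any one of the 6 libraries was left out. Adding OF1 to XL413 raised it by 0.47 ± 0.08 (edgeR, adjusted p = 0.00385), a GDF15 call lost with combination replicate 1 alone (0.41 ± 0.11) and with the muscle covariate (0.35 ± 0.12). Against OF1 alone, the combination gave −0.26 ± 0.07, which did not pass (edgeR, adjusted p = 0.0544). Of 16 alternatives, 13 did not call this GDF15 difference and 3 called it lower. The 3 were limma-voom, the filter of at least 1 CPM in 3 libraries and the fit without combination replicate 3.

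ADM2, a peptide of the calcitonin family, lies on chr22:50481543-50486437 (plus strand) and had the fewest counts of the 10, from 49 to 160 per library. It read 2.85, 2.64 and 2.45 CPM with DMSO, 1.54, 1.57 and 2.52 CPM with XL413, 4.18, 4.39 and 4.05 CPM with OF1, and 4.91, 4.46 and 4.99 CPM with the combination. XL413 replicate 3 lay among the DMSO values and the other XL413 libraries below them, while OF1 and the combination were above both groups. ADM2 rose by 1.34 ± 0.16 when OF1 was added to XL413, 2.53-fold (edgeR, adjusted p = 0.000248), and by 0.85 ± 0.15 in the combination over DMSO (edgeR, adjusted p = 0.00301). OF1 alone gave ADM2 0.67 ± 0.16 over DMSO, just short of the threshold (edgeR, adjusted p = 0.0518). DESeq2 (adjusted p = 0.0139), limma-voom (0.0366), edgeR with no filter (0.038) and edgeR on the 6 libraries compared (0.0242) called this ADM2 rise. With the muscle covariate the rise over XL413 was 1.14 ± 0.24 and did not pass (edgeR, adjusted p = 0.0957), while with combination replicate 1 alone it was 1.38 ± 0.22 and passed.

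**Figure D2:**
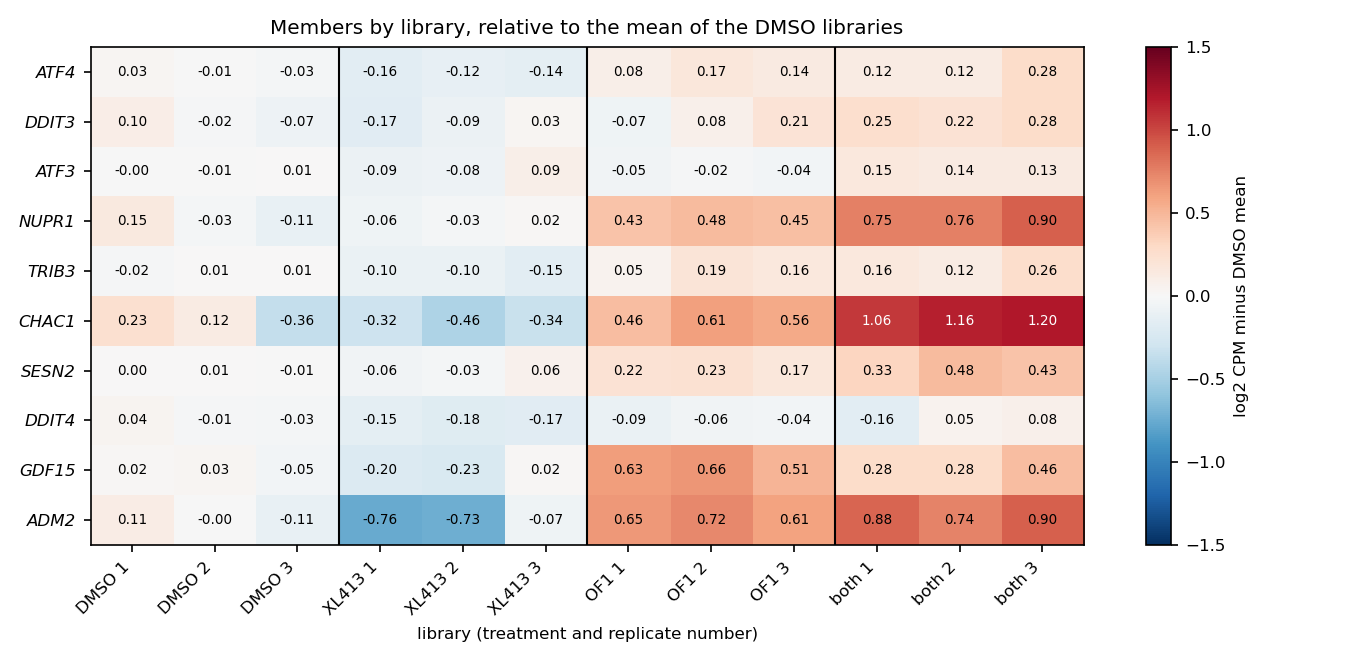
Log2 CPM of each gene in each library minus the mean of its 3 DMSO libraries, with the value in each cell (red above, blue below). CHAC1, NUPR1 and ADM2 carry the deepest red in the combination, and ADM2 and CHAC1 the deepest blue with XL413.

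Taken comparison by comparison, XL413 alone moved none of the 10 past the threshold. By edgeR 5 of the 10 and 2851 of all 15353 genes had an unadjusted p under 0.05, and all 10 log2 fold changes were negative, with a median of −0.12 against 0.00 over all genes. DESeq2 called 2 (ATF4 and DDIT4, both lower) and limma-voom 0, and a fit to the 6 libraries compared called 3 (ATF4, TRIB3 and DDIT4, all lower). Over all 15353 genes these fits called 545, 447 and 1345, against 430 by edgeR on all 12 libraries. Leaving out DMSO replicate 3 called CHAC1 and leaving out XL413 replicate 3 called ADM2, both lower. Calls over all genes were 120 and 100 there. ATF4, TRIB3 and DDIT4 were also the members whose XL413 libraries all lay below DMSO, which held for 14.8% of all genes.

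OF1 alone raised NUPR1, CHAC1 and GDF15 and lowered none, against 0.58% of all genes called higher. GDF15 was the only one of the 3 called without DMSO replicate 2 or 3 or OF1 replicate 2. Calls over all genes were 45, 50 and 45 in those fits, against 176. Over 15 alternatives CHAC1 ranged from 0.37 to 0.65 and NUPR1 from 0.40 to 0.53. The median over the 10 was 0.17, against 0.00 over all genes. In 7 of the 10, every OF1 library lay above every DMSO library, which held for 10.2% of all genes, and in ATF3 and DDIT4 every OF1 library lay below, which held for 11.8%. The muscle score, which was 0.78 to 2.29 in DMSO and 1.44 to 2.60 in OF1, overlapped between these groups, and with it as a covariate GDF15 and NUPR1 passed and CHAC1 did not (0.61 ± 0.13, edgeR, adjusted p = 0.0581).

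The combination raised 7 of 10 over DMSO, all but DDIT3, ATF3 and DDIT4, against 5.65% of all genes called higher. The median of the 10 was 0.30. In 9, all but DDIT4, every combination library lay above every DMSO library, which held for 13.8% of all genes. With combination replicate 1 alone, and so with the spread of the other groups, NUPR1, CHAC1, SESN2 and ADM2 passed as higher and DDIT4 as lower. With the muscle covariate, NUPR1, TRIB3, CHAC1 and SESN2 passed, and without DMSO replicate 3 NUPR1, CHAC1, SESN2 and ADM2.

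In cells given XL413, OF1 raised 8 of 10, all but ATF3 and DDIT4, against 1.06% of all genes called higher. The median was 0.37 against 0.01 over all genes, and all 10 had an unadjusted p under 0.05, as did 2584 of all 15353 genes. In 9, again all but DDIT4, the combination libraries lay above all XL413 libraries, which held for 8.99% of all genes. The fit with combination replicate 1 alone, which has no spread of its own for the combination, called 6 of the 8, not DDIT3 and GDF15, where calls over all genes went from 524 to 156. The muscle covariate kept 3 of the 8 (NUPR1, TRIB3 and CHAC1), where calls over all genes went from 524 to 33, and all 10 log2 fold changes were above 0. The muscle score was −0.76 to 0.84 in the combination and 1.30 to 2.65 with XL413, so it moved with this comparison.

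XL413 added to OF1 raised NUPR1 by 0.35 ± 0.07 (edgeR, adjusted p = 0.0172), CHAC1 by 0.60 ± 0.11 (edgeR, adjusted p = 0.0101) and SESN2 by 0.21 ± 0.05 (edgeR, adjusted p = 0.0328). These 3 stood against 5.5% of all genes called and 2.79% called higher. Libraries of the combination lay above those of OF1 in 6 of 10 and below them in GDF15, which held for 11.2% and 11.3% of all genes. The calls did not hold with combination replicate 1 alone, which has no spread of its own, where CHAC1 gave 0.51 ± 0.17 and NUPR1 0.30 ± 0.11. All 3 were also lost with the muscle covariate, where calls over all genes went from 845 to 9. The muscle score was −0.76 to 0.84 in the combination and 1.44 to 2.60 with OF1, so it moved with this comparison. CHAC1 was called in every fit that left out a single library, NUPR1 was lost without any OF1 library or combination replicate 3, and SESN2 also without combination replicate 2. Calls over all genes were 227 to 2293 in the fits that left out a single library. DESeq2 did not call SESN2 here (adjusted p = 0.0532).

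The agents differed directly from each other. With OF1, 7 of 10 were higher than with XL413 (not DDIT3, ATF3 and DDIT4), against 6.45% of genes called and 3.35% called higher, and all 7 passed with the muscle covariate. In 8 of 10 the libraries did not overlap, OF1 being above, which held for 14.3% of all genes. The largest of these differences were 1.16 ± 0.16 for ADM2 (edgeR, adjusted p = 0.000722), 0.93 ± 0.13 for CHAC1 (edgeR, adjusted p = 0.000522) and 0.73 ± 0.08 for GDF15 (edgeR, adjusted p = 5.99e-05). SESN2 was lost here without XL413 replicate 1 or 2 or OF1 replicate 1 or 2, and was not called by DESeq2 (adjusted p = 0.0525). These comparisons share libraries: each group enters 3 of the 6.

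**Figure D3:**
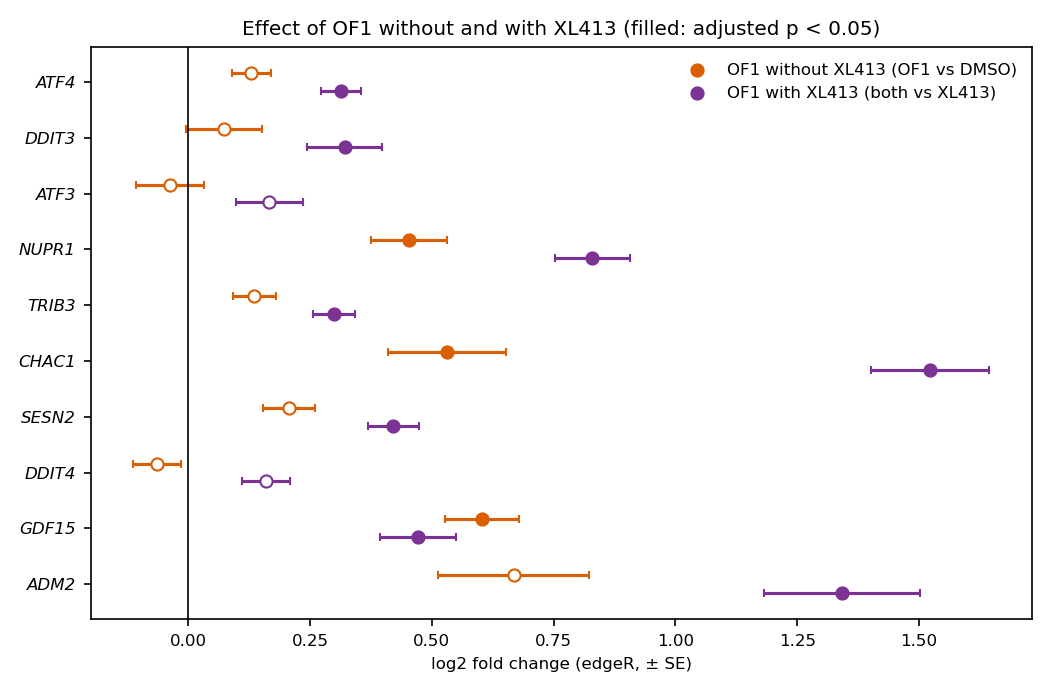
Log2 fold change (± SE, edgeR) on adding OF1 without XL413 (OF1 against DMSO, orange) and with XL413 (combination against XL413, purple) for each gene, filled where adjusted p was under 0.05. The purple point lies to the right of the orange for 9 of the 10 genes, GDF15 being the exception, and the difference between the points passed for none.

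Whether the effect of OF1 depended on XL413 was tested as non-additivity, the log2 change of the combination minus those of the single agents. No gene of the 15353 passed by edgeR (0% called), with 8 of the 10 members and 1566 of all genes at an unadjusted p under 0.05. DESeq2 called 109 genes, CHAC1 among them, and limma-voom called 0. With no filter edgeR called 132 of 21118 genes, CHAC1 among them. Without DMSO replicate 3 edgeR called CHAC1 among 10 genes, and without combination replicate 1 it called CHAC1 and DDIT4 among 373. The value was positive for 9 of the 10. CHAC1 had the largest, 0.99 ± 0.17 (edgeR, adjusted p = 0.0869), followed by ADM2 at 0.67 ± 0.22 (edgeR, adjusted p = 0.272) and NUPR1 at 0.38 ± 0.11 (edgeR, adjusted p = 0.203). GDF15 gave −0.13 ± 0.11 (edgeR, adjusted p = 0.732). With the muscle covariate no gene passed by edgeR, and 366 of all genes had an unadjusted p under 0.05. The value was positive for 9 of the 10 with the covariate, and also with combination replicate 1 alone. Over 21 alternatives CHAC1 ranged from 0.72 to 1.15, ADM2 from 0.40 to 0.95, NUPR1 from 0.24 to 0.43 and SESN2 from 0.07 to 0.26.

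Across the 12 libraries the levels of the members were positively correlated. All 45 pairs of log2 CPM had a positive Pearson correlation, with a median of 0.79, and the points share the treatment groups. After each group's mean was removed, 39 of 45 were positive with a median of 0.34. CHAC1 followed the mean of the other 9 most closely (r = 0.96), and DDIT4 least (r = 0.52). Genes outside the 10 were ranked by Pearson correlation over 12 libraries with the mean standardised level of the 10. The 12335 candidates had an average log2 CPM of at least 1. Those with clone-like, non-coding or hyphenated names, or names ending in P and a number, were left out of the ranking. The 5 most similar of the rest were PHGDH (0.96), YARS (0.95), PYCR1 (0.95), SARS (0.95) and AARS (0.95). PHGDH and PYCR1 are enzymes of serine and proline synthesis, and the others are aminoacyl-tRNA synthetases. The members also correlated with the muscle score over the same libraries, from −0.16 for GDF15 to −0.79 for ATF3.

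Promoter windows of RefSeq (GRCh38.p14, 250 bases before to 50 after a start) were found for 9 of the 10 genes, in 14 windows. They were searched on both strands for the C/EBP-ATF response element bound by ATF4 heterodimers (TGATGNAA), the cyclic AMP response element (TGACGTCA) and the ER stress response element (CCAAT and CCACG spaced by 9 bases). The first was found in the windows of CHAC1 and ATF3, and in 3.62% of all 35116 windows. The other motifs were found in none of the 14, and in 1.85% and 0.0769% of all windows. The matches are printed because CHAC1 had the largest response of the 10 and ATF3 one of the smallest, with ASNS, the asparagine synthetase gene that is a classic ATF4 target, beside them. Capitals mark the matched bases, and each sequence runs 5′ to 3′ on the strand of its gene, at chr15:40953252-40953279, chr1:212565206-212565233 and chr7:97872459-97872486.
CHAC1: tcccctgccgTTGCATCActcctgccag
ATF3: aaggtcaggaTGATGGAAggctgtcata
ASNS: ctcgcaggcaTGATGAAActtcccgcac
The match lies at −209 to −202 from the start in CHAC1, on the reverse strand, at −191 to −184 in ATF3 and at −68 to −61 in ASNS. Both the CHAC1 and ASNS stretches lie upstream of the RefSeq start. In GENCODE release 29 the CHAC1 stretch overlaps exons of 2 transcripts and the ASNS stretch exons of 4. The gene and strand of these transcripts were not recorded, so whether they start CHAC1 or ASNS further upstream was not tested.

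Other genes of the pathway were counted by group, and each count stands beside the shares of all genes called: 2.8% with XL413 alone, 1.15% with OF1 alone, 10.7% for the combination over DMSO and 3.41% when OF1 was added to XL413. Of 16 ATF4-driven amino acid enzymes, OF1 alone raised 11 and OF1 added to XL413 raised 13, with medians of 0.22 and 0.44, and none fell. XL413 alone lowered 3 of the 16 (ASNS, PSAT1 and SHMT2). ASNS was not called when DMSO replicate 1 or 3, or either of XL413 replicates 2 and 3, was left out. PSAT1 was not called when any DMSO library or XL413 replicate 2 was left out. With single libraries left out 0 to 2 of the 16 fell, and none without DMSO replicate 1 or 3 or XL413 replicate 2. In those fits ASNS gave −0.172 to −0.144 and PSAT1 −0.16 to −0.135. Calls over all genes were 85 to 268, against 430 with all 12 libraries. The combination raised 13 over DMSO and lowered ALDH18A1. ASNS rose from 151 ± 2.9 (SD, n = 3) CPM in DMSO to 239 ± 3.2 CPM with OF1, by 0.66 ± 0.03 (edgeR, adjusted p = 1.19e-08). With combination replicate 1 alone 11 of the 16 enzymes passed over XL413, and with the muscle covariate 10. Of 11 tested amino acid transporters, OF1 alone raised 2 and OF1 added to XL413 raised 7, among them SLC7A11, the cystine carrier, by 0.71 ± 0.08 (edgeR, adjusted p = 0.000101). The 7 became 5 with replicate 1 alone and 2 with the covariate. XL413 alone lowered SLC7A5 and SLC3A2, the subunits of a leucine transporter, and the combination raised 4 transporters over DMSO. The fall of SLC3A2 with XL413 was lost when any of the 6 libraries was left out, where it gave −0.208 to −0.182. It was also lost with the covariate (−0.19 ± 0.05, edgeR, adjusted p = 0.0657). Of 20 cytosolic aminoacyl-tRNA synthetases, OF1 alone raised 7 and lowered VARS, and OF1 added to XL413 raised 12, which became 12 and 5 in the same settings. XL413 alone lowered MARS and VARS. None of the 20 was called when DMSO replicate 2 or 3 or XL413 replicate 2 or 3 was left out. When DMSO replicate 1 or XL413 replicate 1 was left out, and with the covariate, 1 of the 20 fell. The combination raised 13 over DMSO and lowered VARS.

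Of 20 genes for eIF2 kinases, phosphatases and eIF2 factors, edgeR called none with XL413 alone (4 at an unadjusted p under 0.05, 1 called by DESeq2, 0 by limma-voom). With OF1 alone it also called none (5 at an unadjusted p under 0.05, 0 by either other tool), and 2 rose when OF1 was added to XL413 (3.41% of all genes passed there). They were PPP1R15A (GADD34, the stress-induced subunit that returns eIF2 to its unphosphorylated state) by 0.29 ± 0.04 (edgeR, adjusted p = 0.000557) and EIF2S2, a subunit of eIF2, by 0.16 ± 0.03 (edgeR, adjusted p = 0.0153). PPP1R15A passed with replicate 1 alone and not with the covariate, and EIF2S2 in neither. Among 18 bZIP partners, CEBPG, which pairs with ATF4, fell by 0.18 ± 0.04 with XL413 (edgeR, adjusted p = 0.032) and rose by 0.27 ± 0.04 with OF1 (edgeR, adjusted p = 0.00485). The fall of CEBPG with XL413 was lost when any of the 6 libraries was left out, where it gave −0.203 to −0.158. It was also lost with the covariate (−0.19 ± 0.05, edgeR, adjusted p = 0.0622). With those single libraries left out, calls over all genes were 85 to 268, against 430. OF1 added to XL413 raised CEBPG by 0.46 ± 0.04 (edgeR, adjusted p = 1.39e-05) and JDP2 by 0.54 ± 0.10 (edgeR, adjusted p = 0.0112), and lowered JUND and FOSL2. CEBPG passed in this comparison with the covariate and with replicate 1 alone, and JDP2 in neither.

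A list of 26 tested stress targets of ATF4 or CHOP shares SLC3A2 with the transporters and VEGFA with the hypoxia targets below. OF1 alone raised 2 of the 26 and the combination raised 7 over DMSO, VEGFA among them each time. XL413 alone lowered SLC3A2. When OF1 was added to XL413, 5 of the 26 rose, SLC3A2 among them, and none fell. INHBE, an inhibin subunit and hepatokine gene, rose by 3.16 ± 0.36 (edgeR, adjusted p = 0.000133). Its level was low, 0.14 ± 0.08 (SD, n = 3) CPM with XL413, 0.31 ± 0.10 CPM with DMSO, 0.79 ± 0.10 CPM with OF1 and 1.35 ± 0.28 CPM with the combination. The other arms of the unfolded protein response, driven by XBP1 and by ATF6, were counted apart as a pooled list. Of its 20 genes, none rose and 4 fell on adding OF1 to XL413, where 3.41% of all genes passed, with a median of −0.01. HSPA5 (BiP), the main ER chaperone and a marker of those arms, fell by 0.11 ± 0.03 (edgeR, adjusted p = 0.0364) and HSP90B1 by 0.13 ± 0.03 (edgeR, adjusted p = 0.0108). None of the 20 passed in this comparison with the covariate, and 1 fell with replicate 1 alone. OF1 alone raised XBP1 by 0.30 ± 0.05 (edgeR, adjusted p = 0.0119) and lowered CALR, an ER chaperone, by 0.14 on the log2 scale (edgeR, adjusted p = 0.0237). Over DMSO the combination raised HERPUD1, which acts in ER-associated degradation, by 0.17 ± 0.05 (edgeR, adjusted p = 0.0367), and lowered HSPA5, HSP90B1, SDF2L1 and PDIA6. XL413 alone moved none of the 20 past the threshold by edgeR, with 2 at an unadjusted p under 0.05.

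GDF15 and SESN2 are also p53 targets and DDIT4 a hypoxia target, so these pathways were counted beside them. Of 24 other p53 targets, none passed by edgeR with XL413 alone, with OF1 alone or when OF1 was added to XL413, where 3, 4 and 6 had an unadjusted p under 0.05 and 2.8%, 1.15% and 3.41% of all genes passed. DESeq2 and limma-voom called 0 in each. A fit to the 6 libraries compared called 2 of the 24 higher with XL413 alone, where it called 1345 of all genes. TP53I3 rose in the combination over DMSO. Against OF1 the combination raised DDB2 and lowered ZMAT3 and GADD45A, where 5.5% of all genes passed. DDB2 was lower with OF1 than with XL413, where 6.45% passed. CDKN1A gave 0.04 ± 0.04 with OF1 alone (edgeR, adjusted p = 0.749) and MDM2 0.02 ± 0.09 (edgeR, adjusted p = 0.953). Of 22 other hypoxia targets, OF1 alone raised VEGFA by 0.33 ± 0.04 (edgeR, adjusted p = 0.00169) and lowered CA9 by 1.36 on the log2 scale (edgeR, adjusted p = 0.0237), and the other 20 did not pass. XL413 alone lowered HK2, OF1 added to XL413 lowered CA9 and EGLN1, and the combination over DMSO raised VEGFA and lowered CA9, ADM, EGLN1, SLC2A1 and HK2. Of 17 tested genes that feed into mTORC1, the pathway that SESN2 and DDIT4 restrain, none passed by edgeR, DESeq2 or limma-voom with XL413 alone, OF1 alone or OF1 added to XL413, and 1, 1 and 0 had an unadjusted p under 0.05 by edgeR. NPRL3 fell in the combination over DMSO.

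**Figure D4:**
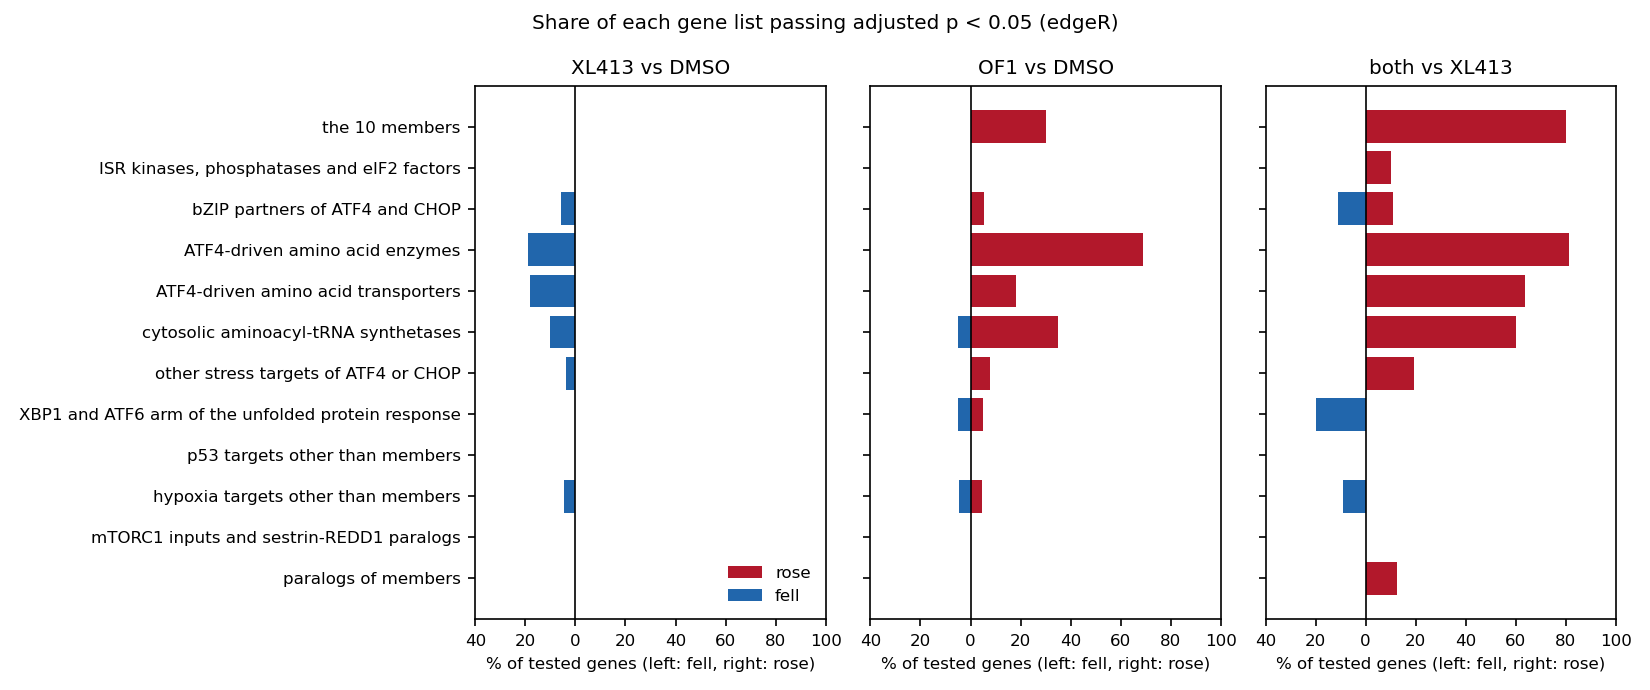
Percent of the tested genes of each group that rose (red, to the right) or fell (blue, to the left) at adjusted p under 0.05 (edgeR), for XL413 against DMSO, OF1 against DMSO and the combination ("both") against XL413. The 10 members, the amino acid enzymes, the transporters and the synthetases carry the longest red bars in the panel of both against XL413 (8 of 10, 13 of 16, 7 of 11 and 12 of 20).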

How the data were processed

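Poly(A) RNA of 12 A375 libraries was sequenced, per the labels' protocols. The authors deposited 1 table of unscaled RSEM expected counts per gene symbol. Per the submitters' processing notes, reads were handled with Bowtie2 2.1.0 and RSEM 1.2.15 on hg38. Neither annotation nor strand setting was given in the sources used here. Before testing, counts were rounded, as 10.6% held a fraction. The labels gave the groups.

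In R 4.3.3 with edgeR 4.0.16, genes passing filterByExpr (15353 of 26475 entries) were fitted with TMM factors and 1 mean per group over all 12 libraries (8 residual degrees of freedom). The quasi-likelihood F test was adjusted by Benjamini-Hochberg over all genes in each of 7 comparisons, and SE is the absolute log2 fold change over the square root of F. The fit was tested on simulated data. The common biological coefficient of variation was 0.049. Replicates within groups differed by a chi-square of 2.32 to 13.6 per degree of freedom, so none was a copy of another. Alternatives were DESeq2 1.42.0, limma-voom (limma 3.58.1), other scaling factors and filters, the replicate block, the muscle covariate, fewer libraries (with 1 combination library, its spread is assumed to be that of the other groups) and each library left out.

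The members and gene lists were chosen with earlier results of these data known, and no list was tested as a set. All members are named. From each list, up to 3 genes that passed in the combination against XL413 by smallest p were eligible for naming, and for the kinase, phosphatase and partner lists up to 6 that passed with OF1. MARS, CDKN1A, MDM2, VEGFA, HSPA5, VARS, JUND, ADM, XBP1, CALR, HERPUD1, PDIA6, SHMT2, ALDH18A1, SLC7A5, HK2, SLC2A1, TP53I3, DDB2, ZMAT3, GADD45A and NPRL3 were named after their values were seen. Positions, promoters and exon overlaps come from RefSeq GRCh38.p14 and GENCODE release 29.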

Additional observations from a re-analysis of the deposited data

How the results depend on the processing

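Of 1140 values of the members under the alternatives, 1037 kept direction and side of the threshold, 60 lost and 26 gained a call, and 17 changed sign. For XL413 against DMSO the count of members called was 0, and 2 by DESeq2, 3 in a fit to the 6 libraries compared and 0 to 1 when single libraries were left out. For OF1 against DMSO it was 3, and 4 by DESeq2, limma-voom and edgeR with no filter (ADM2 was added) and 1 to 3 with single libraries left out. For the combination against DMSO it was 7, and 4 with the muscle covariate and 4 to 7 with single libraries left out. There it was 8 by limma-voom, with upper-quartile factors and with the filter of at least 1 CPM in 3 libraries (DDIT3 was added). For the combination against XL413 it was 8, and 3 with the covariate and 7 to 9 with single libraries left out. For the combination against OF1 it was 3, and 0 with the covariate, 0 with combination replicate 1 alone, 1 in a fit to the 6 libraries compared and 1 to 4 with single libraries left out. For non-additivity it was 0, and 1 by DESeq2, 1 with no filter and 0 to 2 with single libraries left out. Calls over all genes shifted as well. For XL413 against DMSO they went from 430 to 545 by DESeq2 and 1345 in the fit to the 6 libraries compared. For OF1 against DMSO they were 45 to 83 with single libraries left out, against 176. For the combination against OF1 they went from 845 to 9 with the covariate and 110 in the fit to 6 libraries. For non-additivity they went from 0 to 109 by DESeq2 and 132 with no filter. The cause of these shifts was not tested.

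The changes of sign were in differences that had not passed. For XL413 against DMSO, NUPR1 gave 0.004 and SESN2 0.021 with the covariate, and single libraries left out gave −0.085 to 0.009 for ATF3, −0.081 to 0.05 for NUPR1 and −0.043 to 0.017 for SESN2. For the combination against DMSO, DDIT4 gave 0.003 with upper-quartile factors and −0.055 to 0.064 with single libraries left out. For the combination against OF1, DDIT4 gave −0.034 with the covariate and −0.095 with combination replicate 1 alone, ADM2 −0.038 with the covariate, and ATF4 −0.005 with replicate 1 alone. Single libraries left out gave −0.014 to 0.073 for ATF4 and −0.004 to 0.076 for TRIB3 there, and −0.045 to 0.048 for ATF3 in OF1 against XL413. The replicate numbers did not pair the libraries (4 of 18 same-numbered pairs correlated above 0.1). With the replicate block, OF1 against DMSO called 2 members (CHAC1 was lost), and the other counts stayed at 0, 7, 8, 3, 7 and 0.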

Other observations

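Of 12 paralogs, 8 had enough counts to be tested, and their median log2 difference was −0.07 when OF1 was added to XL413, where JDP2, a relative of ATF3, was the only one of the 8 that passed, where 3.41% of all genes did. In the combination against DMSO, JDP2 rose by 0.34 ± 0.10 (edgeR, adjusted p = 0.0445), a call of JDP2 lost by DESeq2 (adjusted p = 0.0764), with the muscle covariate and when any library but DMSO replicate 1 was left out. ATF5, the nearest relative of ATF4 and itself a target of the pathway, fell by 0.21 on the log2 scale in that comparison (edgeR, adjusted p = 0.00543). ADM, the relative of ADM2 and a hypoxia target, fell by 0.24 (edgeR, adjusted p = 0.00469), while ADM2 rose by 0.85 ± 0.15 (edgeR, adjusted p = 0.00301).

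Matches to the C/EBP-ATF response element were found in the promoter windows of 7 of the 16 aminoacyl-tRNA synthetase genes that had a window, 5 of 10 amino acid transporter genes and 3 of 11 amino acid enzyme genes, against 2 of 9 members. These genes had 21, 17, 18 and 14 windows. Among 20 genes of the XBP1 and ATF6 arms, with 23 windows, 1 held this element and 6 held the ER stress response element. Of all 35116 windows, 3.62% held the first element and 0.0769% the second. Those shares are per window, while the counts are of genes with a match in any window.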
